A study of Mus musculus with 36 samples.

Results

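The adrenergic receptor genes are the genes for the receptors of noradrenaline and adrenaline. The genes asked about were Adra1a, Adra1b, Adra1d, Adra2a, Adra2c and Adrb1, and their probe sets were those that the array annotation pairs with exactly 1 of these symbols. This gave 5 probe sets of 2 genes, Adra1b and Adra2c, among 45037 probe sets and 18193 named genes on the array. Adra1b has 1 probe set (1422183_a_at). Adra2c has 4 (1422335_at, 1435296_at, 1457328_at and 1439762_x_at). The other 4 genes were not analysed here.

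Noradrenaline is released in the forebrain and midbrain by axons whose cell bodies lie in the locus coeruleus and other hindbrain groups. Alpha-1 receptors, among them the product of Adra1b, couple to Gq proteins and phospholipase C and usually raise the excitability of the target neuron. Alpha-2 receptors, among them the product of Adra2c, couple to Gi and Go proteins, lower the activity of adenylyl cyclase, and act both on the noradrenaline terminals themselves and on the neurons these contact. In rodents Adra2c transcripts are known from striatal neurons, and Adra1b transcripts from thalamus and cortex. Modafinil is a wake-promoting drug that blocks the dopamine transporter, and adrenergic receptors have long been studied for a part in its effects.

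The arrays came from male C57B1/6J mice of 20 to 26 g in a conditioned place preference test, in which one compartment of a box is paired with a drug. During conditioning, days 3 to 10, modafinil mice were injected with 65 mg modafinil per kg on drug days and with saline on the days between. Vehicle mice were injected with saline throughout. The mice were killed directly after the final test on day 11, which was 24 h after their last injection. Whether that injection was modafinil or saline in modafinil mice is not given in the labels, so the time since the last modafinil dose is unknown here. The prefrontal cortex (PFC), nucleus accumbens (NAC) and ventral tegmental area (VTA) were punched out at 1 mm diameter from slices of 100 µm. There were 8 modafinil and 8 vehicle arrays of PFC, 5 and 5 of NAC, and 5 and 5 of VTA, 36 in all. For VTA and NAC, RNA from 2 pieces of tissue was combined where its integrity number was above 7. Nothing in the labels ties each array to its own mouse, so the p-values describe spread between arrays, which may be technical. A punch holds many cell types, and fewer cells of a type cannot be told apart from less RNA per cell.

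Values are on the log2 scale, as the authors deposited them. Their median over all probe sets lay at 7.2 to 7.27 in PFC arrays, 6.79 to 6.9 in NAC arrays and 6.76 to 6.81 in VTA arrays. PFC levels were therefore compared with the other regions after quantile normalization of all 36 arrays, which gives every array the same distribution of values. Vehicle NAC array 1 had the lowest 99th percentile of all arrays, 11.43, and without it the NAC minus VTA difference was 2.03 for Adra2c with 1422335_at, 2.30 with 1435296_at, and for Adra1b −0.51. Markers of the dissected regions were read in vehicle mice as a description. Of 10 striatal projection neuron markers, 10 were higher in NAC than in VTA, and 7 of 7 cortical markers were higher in PFC than in VTA. Midbrain dopamine neuron markers ran the other way. Of 14 listed, 8 were tested, with 6 called lower in NAC than in VTA and 1, Drd2, higher. Some markers were dim in a region and passed the filter on dim values, given below, through other regions. Tbr1 stood at a mean percentile of 4.19 in vehicle VTA, and Slc6a3 at 32.2 in vehicle NAC. The counts therefore do not test the dissection.

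Adra2c differed between all 3 regions in vehicle mice, with the highest level in NAC, an intermediate one in PFC and the lowest in VTA. Read with 1422335_at, the probe set with the highest mean and hence the one standing for the gene, Adra2c was at 9.02, 8.54, 8.97, 9.19 and 9.10 in vehicle NAC arrays, against 7.05, 7.13, 6.94, 6.48 and 6.99 in vehicle VTA arrays. The lowest NAC array was well above the highest VTA array. With 1435296_at Adra2c was at 8.95, 8.50, 8.87, 9.16 and 9.35 in vehicle NAC, against 6.70, 6.94, 7.07, 6.15 and 6.49 in vehicle VTA. Here too the groups did not overlap. The share of all probe sets without overlap between these groups was not counted.

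The Adra2c difference, NAC minus VTA, was 2.05 ± 0.12 on the log2 scale (SE), or 4.13-fold with a 95% interval of 3.48 to 4.90, for 1422335_at (limma, adjusted p = 2.76e-11). It was 2.30 ± 0.16, or 4.91-fold with an interval of 3.92 to 6.16, for 1435296_at (limma, adjusted p = 2.68e-10). Both probe sets that passed the filter on dim values were thus called higher in NAC, where 30.3% of all 27022 tested probe sets were called higher than in VTA and 28.8% lower. The filter kept the probe sets whose mean lay at or above the 40th percentile. Adra2c did not pass through NAC alone: 1422335_at stood at a mean percentile of 51.9 within the vehicle VTA arrays, and 1435296_at at 48.1.

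PFC lay between these regions. After quantile normalization Adra2c (1422335_at) averaged 8.23 ± 0.11 in vehicle PFC (SD, n = 8), 9.14 ± 0.24 in vehicle NAC (n = 5) and 7.13 ± 0.26 in vehicle VTA (n = 5). PFC exceeded VTA by 1.09 ± 0.10 (SE), or 2.14-fold (limma, adjusted p = 2.44e-08), and differed from NAC by −0.91 ± 0.10, a ratio of 0.533 (limma, adjusted p = 5.79e-07). For 1435296_at the differences were 1.02 ± 0.14 against VTA and −1.22 ± 0.14 against NAC (limma, adjusted p = 2.23e-06 and 4.19e-07). Of all tested probe sets 33% were called higher and 32.1% lower in PFC than in VTA, and 30.8% higher and 27.4% lower in PFC than in NAC. The order held on the deposited values, where the PFC minus VTA difference of 1422335_at was 1.57 and the PFC minus NAC difference −0.47. Each pair of neighbours in the order NAC, PFC, VTA therefore differed by more than its error on both scales, though the sizes depended on the scale.

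**Figure D1:**
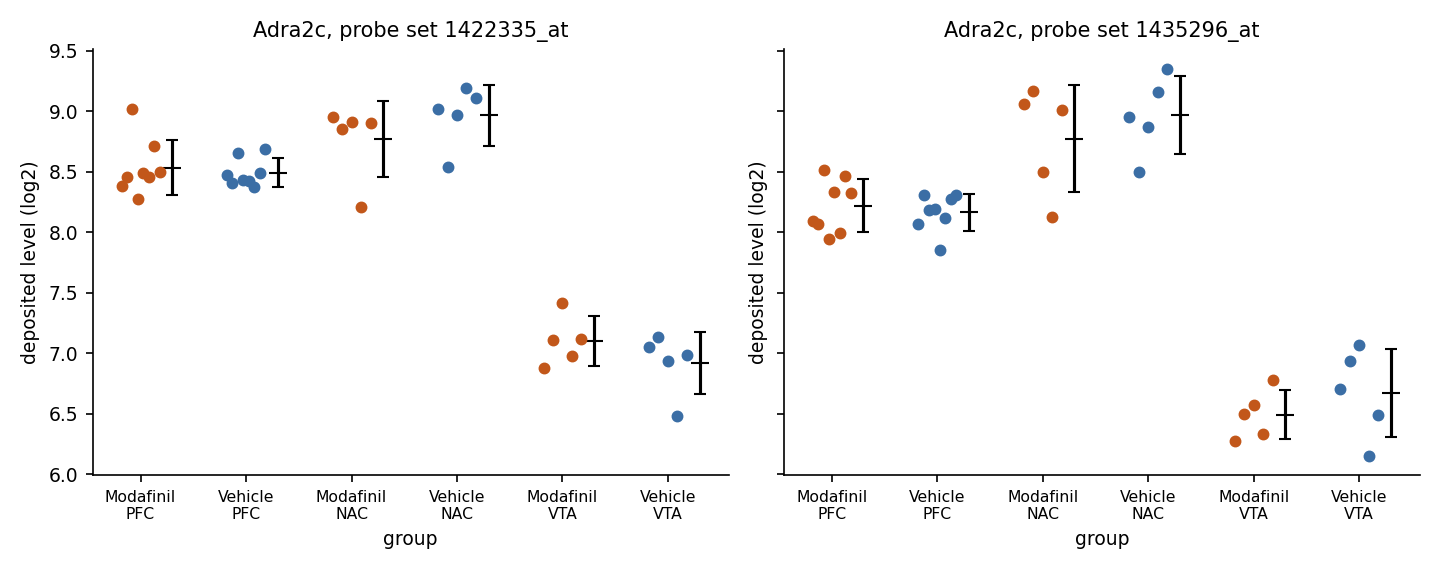
Adra2c level on the log2 scale of the deposited values (y axis) in each array of the 6 groups (x axis), for probe sets 1422335_at (left) and 1435296_at (right); points are arrays, and the bars beside them give the mean ± SD. Vehicle NAC arrays lie at 8.54 to 9.19 and vehicle VTA arrays at 6.48 to 7.13 in the left panel, and within each region modafinil and vehicle arrays overlap; the PFC arrays were deposited on a higher overall scale.

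Adra1b had another order, with the lowest level in NAC. It was at 5.64, 5.78, 5.72, 5.60 and 5.53 in vehicle NAC arrays, against 6.38, 6.16, 6.00, 5.96 and 6.33 in vehicle VTA arrays. All 5 NAC values were below all 5 VTA values, and the share of all probe sets so separated was not counted. Its mean over the vehicle arrays was under the filter, so the level contrasts of Adra1b come from a fit of all 45037 probe sets without it. NAC minus VTA was −0.51 ± 0.09 (SE), a ratio of 0.701 with an interval of 0.613 to 0.803 (limma, adjusted p = 0.000104), where 25.1% of all probe sets were called lower and 31.7% higher.

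After quantile normalization Adra1b averaged 6.57 ± 0.15 in vehicle PFC (SD, n = 8), 5.81 ± 0.11 in vehicle NAC (n = 5) and 6.40 ± 0.18 in vehicle VTA (n = 5). PFC exceeded NAC by 0.75 ± 0.08 (SE), or 1.68-fold (limma, adjusted p = 2.27e-07), where 29.7% of all probe sets were called higher and 26.5% lower. PFC and VTA, the upper neighbours in this order, were not told apart on this scale, with a difference of 0.17 ± 0.08 and an interval of −0.0047 to 0.34 (limma, adjusted p = 0.0844). On the deposited values the same difference was 0.62 and was called (adjusted p = 1.12e-06), and it was also called when vehicle VTA array 1, vehicle VTA array 5 or vehicle PFC array 4 was left out (0.21 each time), so the place of PFC against VTA depends on the scale and on single arrays. In that contrast 31.8% of all probe sets were called higher and 30.3% lower without the filter.

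**Figure D2:**
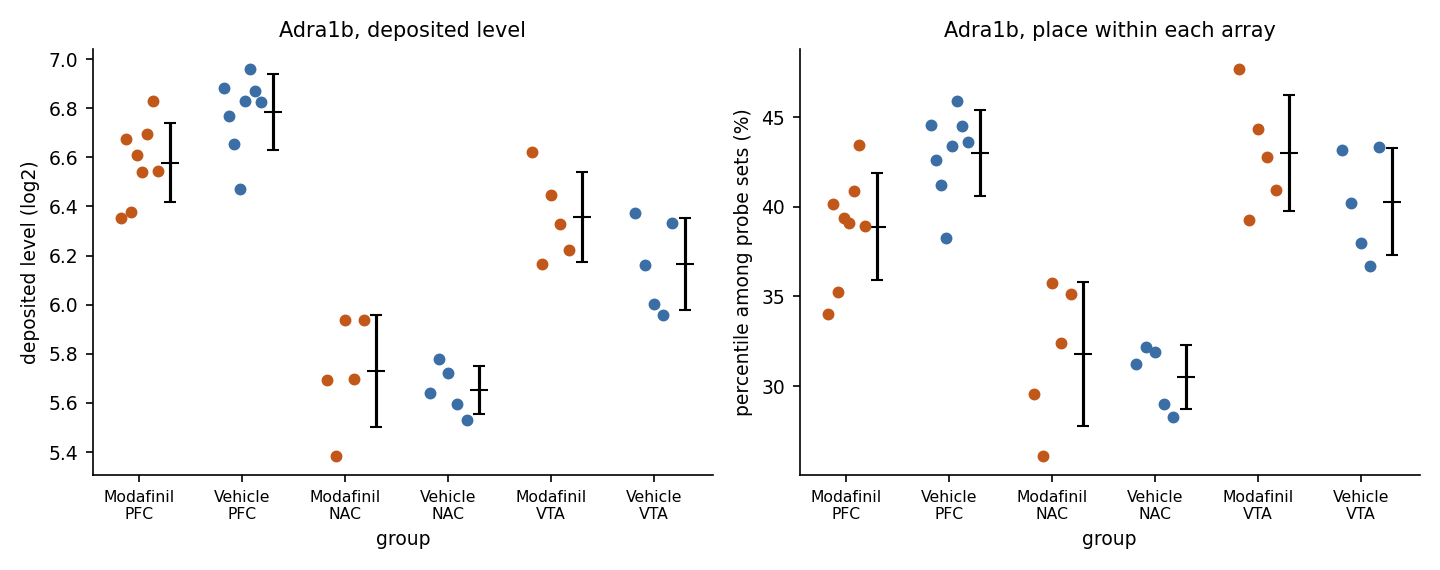
Adra1b (1422183_a_at) in each array of the 6 groups (x axis), as the deposited log2 level (left) and as the percentile of the probe set among all probe sets of its array (right); points are arrays, and the bars beside them give the mean ± SD. Vehicle NAC arrays lie lowest among the vehicle groups in both panels, while PFC lies above VTA in the deposited levels but close to it in percentile.

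The remaining Adra2c probe sets were dim, and the files used here give no call of presence for them. Over all arrays 1457328_at averaged 4.57, at the 12.6th percentile of all probe sets, and 1439762_x_at averaged 3.52, at the 5.7th. Neither passed the filter in any comparison. Without it 1457328_at was higher in vehicle NAC than in vehicle VTA by 0.36 ± 0.10 and 1439762_x_at by 0.27 ± 0.07 (limma, adjusted p = 0.00627 and 0.00276). The full order of the brighter probe sets did not appear in either. In 1457328_at PFC and VTA were not told apart after quantile normalization, with a difference of 0.03 ± 0.09 (SE, limma adjusted p = 0.788). The other, 1439762_x_at, was higher in PFC than in NAC, by 0.25 ± 0.06 (limma, adjusted p = 0.00217), and by 0.78 on the deposited values. That probe set is of the x_at kind, which can share sequence with other genes.

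The genes whose pattern over all 36 arrays was most like that of Adra2c were Arpp21, Actn2 and Grm5, with Pearson r of 0.97, 0.969 and 0.968 among 12616 genes compared after quantile normalization. Arpp21 encodes a phosphoprotein enriched in striatal and cortical neurons, Actn2 an alpha-actinin, and Grm5 a metabotropic glutamate receptor. Actn2 averaged 7.80 ± 0.19 in vehicle PFC, 9.11 ± 0.30 in vehicle NAC and 5.96 ± 0.09 in vehicle VTA (SD), the order seen for Adra2c. Those nearest to Adra1b were Stoml1, Tstd3 and Gm13446, at 0.886, 0.884 and 0.884 among 12617 genes. Gm13446 averaged 6.96 ± 0.19 in vehicle PFC, 5.65 ± 0.10 in vehicle NAC and 6.77 ± 0.27 in vehicle VTA (SD). The arrays fall into 3 regions, so these values mainly record likeness of the regional order.

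Striatal projection neuron markers were read beside Adra2c. The 10 markers with a probe set, of 12 listed, among them the dopamine receptor genes Drd1 and Drd2, had a mean level of 8.30 to 10.46 in modafinil PFC arrays, 10.2 to 11.5 in modafinil NAC arrays and 7.64 to 8.08 in modafinil VTA arrays. In vehicle mice the ranges were 8.34 to 8.63 in PFC, 10.6 to 11.6 in NAC and 7.99 to 8.29 in VTA. One modafinil PFC array, array 3, carried the value of 10.46, and the next was 8.68. The same array had the highest Adra2c level of all PFC arrays with both bright probe sets, 9.01 and 8.51. The lowest NAC array in the markers, modafinil NAC array 4 at 10.2, was also the lowest in Adra2c, at 8.21 and 8.13. The part of these cells in the Adra2c values was not tested.

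**Figure D3:**
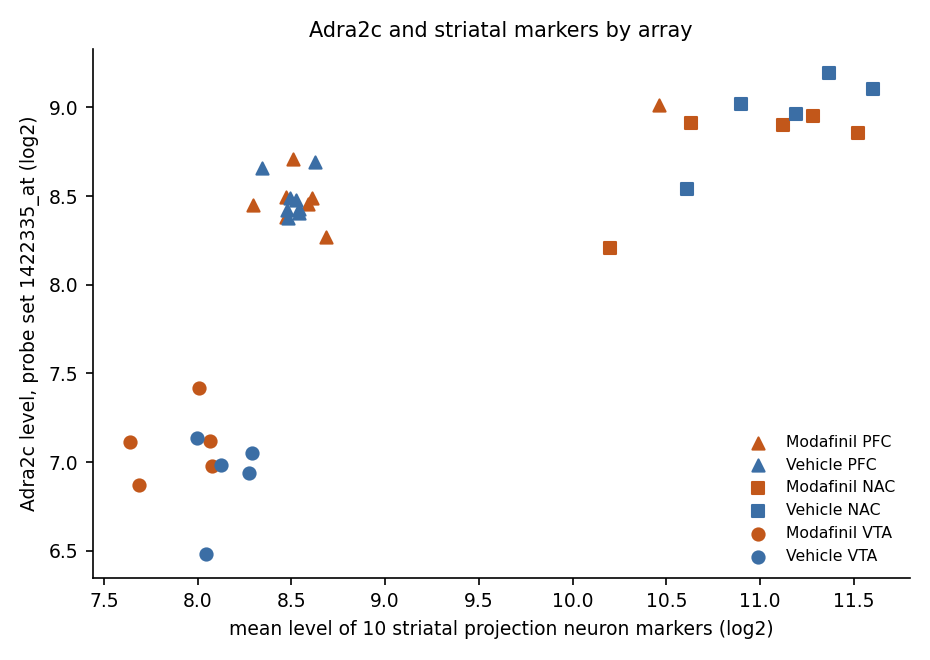
Adra2c level (1422335_at, log2, y axis) against the mean level of 10 striatal projection neuron markers (log2, x axis), 1 point per array, on the deposited values; colour gives the treatment and shape the region. Modafinil PFC array 3 lies at a marker level of 10.46, close to the NAC arrays and away from the other PFC arrays, and modafinil NAC array 4 is the lowest NAC array on both axes.

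Modafinil was then compared with vehicle within each region. No member probe set was called in VTA, NAC or PFC, nor across the regions. The filter left 3 member probe sets to test in PFC, 2 in NAC, 3 in VTA and 2 across the regions. The share called among all 27022 tested probe sets was 0.0518% in PFC, 0% in NAC, 0.259% in VTA and 0.84% over the regions together, so few calls were made in these comparisons anywhere. For the members that passed the filter, 1 unadjusted p was under 0.05, that of Adra1b in PFC. Adra1b lay near the edge of the filter there, at a mean percentile of 38.9 in modafinil and 43.0 in vehicle arrays. Without the filter the unadjusted p of 1439762_x_at in PFC, given below, was also under 0.05. Over all tested probe sets 5695 were under it in VTA, 874 in NAC and 3181 in PFC.

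In PFC, Adra1b was at 6.35, 6.58 and 6.83 in modafinil mice and at 6.47, 6.83 and 6.96 in vehicle mice (lowest, median and highest of 8 arrays each). The groups overlapped, with 7 of 8 modafinil arrays below the vehicle mean and 2 of 8 below the lowest vehicle array. Modafinil minus vehicle was −0.21 ± 0.07 (SE), a ratio of 0.867 with an interval of 0.778 to 0.967. The unadjusted p was 0.013 and did not survive adjustment over all probe sets (limma, adjusted p = 0.345). Beside it, 8 of 8 tested striatal markers were higher in value in modafinil PFC (median 0.28) and so were 9 of 9 oligodendrocyte markers (median 0.23), beside a median of −0.03 over all tested probe sets. In each list 0 were called and 1 had an unadjusted p under 0.05. The 10 striatal markers with a probe set averaged 8.30 to 10.46 in modafinil PFC arrays, against 8.34 to 8.63 in vehicle PFC arrays. The next modafinil array after 10.46 was at 8.68, and the group medians were 8.55 and 8.51. The oligodendrocyte markers averaged 9.43 to 10.5 in modafinil PFC arrays, against 9.10 to 9.92 in vehicle PFC arrays. Modafinil PFC array 3, the highest PFC array in both lists, was at 6.38 in Adra1b, one of the 2 below the lowest vehicle array. The other was modafinil PFC array 1, at 6.35. It was the lowest of its group in oligodendrocyte markers, at 9.43, and stood at 8.47 in striatal markers. Without array 3 the Adra1b difference was −0.18 ± 0.07 (SE), and without array 1 it was −0.17. The part of the striatal and oligodendrocyte markers was not tested.

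In VTA, Adra1b was at 6.62, 6.17, 6.45, 6.33 and 6.22 in modafinil arrays, against 6.38, 6.16, 6.00, 5.96 and 6.33 in vehicle arrays. All 5 modafinil values were above the vehicle mean and 2 were above the highest vehicle array. The difference of 0.19 ± 0.11 (SE) had an interval of −0.04 to 0.42 (limma, adjusted p = 0.312). Thalamic and dopamine neuron markers also differed between these arrays. The 11 thalamic markers averaged 9.52 to 10.22 in modafinil VTA arrays, against 8.53 to 9.83 in vehicle VTA arrays, with 9 of 11 higher in value, 0 called and 7 at an unadjusted p under 0.05. The 14 dopamine neuron markers averaged 7.41 to 8.73 in modafinil VTA arrays, against 8.28 to 9.76 in vehicle VTA arrays, with 13 of 13 tested lower in value, 0 called and 12 at an unadjusted p under 0.05. Modafinil VTA array 1, the highest in Adra1b, was also the highest in the thalamic and the lowest in the dopamine markers. The vehicle arrays ran the other way. Vehicle VTA array 4, the lowest in Adra1b at 5.96, had the highest thalamic and the lowest dopamine markers of its group, 9.83 and 8.28. Vehicle VTA array 1, the highest of its group in Adra1b at 6.38, had the highest dopamine markers, 9.76. The part of these markers in the Adra1b values was not tested.

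In NAC, Adra1b was at 5.69, 5.39, 5.94, 5.70 and 5.94 in modafinil arrays, against 5.64, 5.78, 5.72, 5.60 and 5.53 in vehicle arrays. The modafinil values spanned the vehicle range on both sides. The difference, fitted without the filter, was 0.08 ± 0.10 (SE), with an interval of −0.15 to 0.30 (limma, adjusted p = 1). No probe set at all was called in this fit of 45037.

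Adra2c was not called in any region. In NAC it was at 8.95, 8.86, 8.91, 8.21 and 8.90 in modafinil arrays with 1422335_at, against 9.02, 8.54, 8.97, 9.19 and 9.10 in vehicle arrays. All 5 modafinil values were below the vehicle mean, and 1 was below the lowest vehicle array. With 1435296_at the modafinil arrays were at 9.06, 9.16, 8.50, 8.13 and 9.01, against 8.95, 8.50, 8.87, 9.16 and 9.35 in vehicle arrays, and 2 of 5 lay below the vehicle mean. The differences were −0.20 ± 0.16 and −0.20 ± 0.21 (SE), with intervals of −0.54 to 0.14 and −0.64 to 0.25 (limma, adjusted p = 1 for both). Without modafinil NAC array 4, the array lowest in striatal markers, they were −0.06 and −0.03. Without vehicle NAC array 2, the vehicle NAC array lowest in striatal markers, they were −0.305 and −0.312.

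Beside the NAC values, cortical markers varied widely within both groups. The 7 markers averaged 6.50 to 8.96 in modafinil NAC arrays and 6.95 to 9.15 in vehicle NAC arrays. Modafinil NAC array 4, the lowest in Adra2c, had the highest value of its group, 8.96, and vehicle NAC array 2, the lowest vehicle array in Adra2c, had the highest of its own, 9.15. Their part in the Adra2c values was not tested.

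In VTA, Adra2c was at 6.87, 7.11, 7.42, 6.98 and 7.12 in modafinil arrays with 1422335_at, against 7.05, 7.13, 6.94, 6.48 and 6.99 in vehicle arrays. With 1435296_at it was at 6.27, 6.49, 6.57, 6.33 and 6.78 in modafinil arrays, against 6.70, 6.94, 7.07, 6.15 and 6.49 in vehicle arrays. The groups overlapped in both readings, and the values differed in sign between them. Modafinil minus vehicle was 0.18 ± 0.13 for the first probe set and −0.18 ± 0.16 for the second (SE), with intervals of −0.09 to 0.46 and −0.52 to 0.16 (limma, adjusted p = 0.418 and 0.522). Single arrays moved both: they were 0.07 and −0.31 without vehicle VTA array 4, the first was 0.10 without modafinil VTA array 3, and the second was −0.08 and −0.11 without vehicle VTA arrays 3 and 2.

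In PFC, Adra2c (1422335_at) was at 8.27, 8.47 and 9.01 in modafinil mice and at 8.38, 8.45 and 8.69 in vehicle mice (lowest, median and highest of 8 arrays each). With 1435296_at it was at 7.95, 8.21 and 8.51 in modafinil mice and at 7.85, 8.19 and 8.31 in vehicle mice. The medians lay close together, and the highest modafinil value was that of array 3 in each case. The differences were 0.04 ± 0.08 and 0.05 ± 0.09 (SE), with intervals of −0.14 to 0.22 and −0.13 to 0.24 (limma, adjusted p = 0.858 and 0.812). Without modafinil PFC array 3 they were −0.03 and 0.01. With any single array left out the first lay between −0.03 and 0.08, and the second between 0.0096 (without vehicle PFC array 5) and 0.09.

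The dim probe set 1439762_x_at was at 3.93, 4.21 and 4.31 in modafinil PFC and at 3.85, 4.00 and 4.15 in vehicle PFC (lowest, median and highest of 8). Of the modafinil arrays 5 were above the highest vehicle array. The difference of 0.16 ± 0.06 had an unadjusted p of 0.0135 and an adjusted p of 0.382 (limma, without the filter), where 0.0377% of all probe sets were called.

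**Figure D4:**
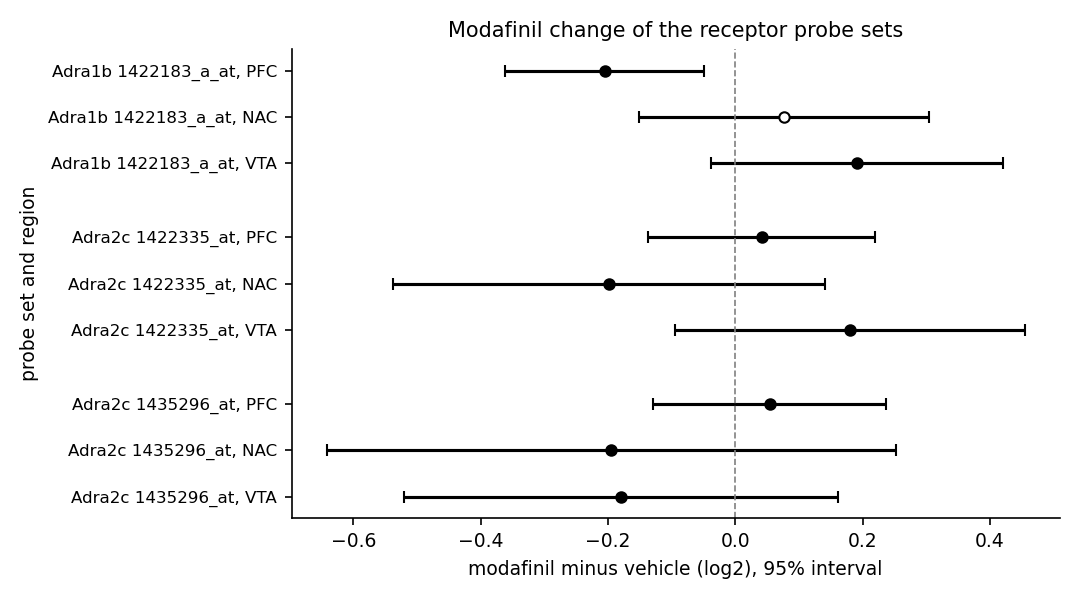
Modafinil minus vehicle on the log2 scale (x axis) for Adra1b and the bright Adra2c probe sets in each region (y axis), with 95% intervals from limma; the open circle marks the value fitted without the filter. The interval of Adra1b in PFC, −0.36 to −0.05, leaves out 0 before adjustment over all probe sets, and the other 8 include it.

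Over the 3 regions together the difference was 0.01 ± 0.07 for Adra2c with 1422335_at, −0.08 ± 0.09 with 1435296_at, and −0.02 ± 0.06 for Adra1b without the filter (SE; limma, adjusted p = 0.942, 0.664 and 0.917). Without the filter 0.5% of all probe sets were called in that comparison. The intervals were −0.14 to 0.16, −0.26 to 0.10 and −0.14 to 0.11. The modafinil change of Adra1b differed between regions before adjustment. VTA minus PFC was 0.40 ± 0.13, with an interval of 0.12 to 0.67 (unadjusted p = 0.00559, limma adjusted p = 0.224), and NAC minus PFC was 0.28 ± 0.13 (unadjusted p = 0.0429, limma adjusted p = 0.916), both without the filter. The share of all probe sets called in these fits was 0.586% and 0%. In the NAC minus PFC fit the dim Adra2c probe set 1439762_x_at also differed before adjustment, by −0.24 ± 0.10 (unadjusted p = 0.0255, limma adjusted p = 0.916). For Adra2c (1422335_at), VTA minus NAC was 0.38 ± 0.19 (limma, adjusted p = 0.464), where 0.274% of tested probe sets were called, against 0.02 ± 0.24 with 1435296_at (adjusted p = 0.988). None of the 3 differences between regions was called for a member that passed the filter, where 0.903% were called for VTA minus PFC and 0% for NAC minus PFC.

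The genes on both sides of the receptors were read from a list of 50, of which 46 had a probe set. None was called with modafinil within a region: 0 of 46 tested in VTA, 0 of 45 in NAC and 0 of 45 in PFC, with 12, 0 and 2 at an unadjusted p under 0.05. The list's median change was −0.04 in VTA, −0.01 in NAC and −0.01 in PFC, beside −0.05, −0.01 and −0.03 over all tested probe sets. Across the regions 0 of 45 were called and 7 were under 0.05 unadjusted. Of all 27022 tested probe sets, 4479 were under 0.05 unadjusted in that comparison. The number within single regions was 5695 for VTA, 874 for NAC and 3181 for PFC. The list's counts are a description to be read against these numbers.

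Genes of noradrenaline supply came first in the list. Dbh, which turns dopamine into noradrenaline, was read from an x_at probe set, a kind that can share sequence with other genes. It averaged 8.85 ± 0.20 in modafinil PFC and 8.69 ± 0.13 in vehicle PFC (SD, n = 8 each), a difference of 0.16 ± 0.08 (SE, limma adjusted p = 0.432). In NAC and VTA its difference was −0.01 and 0.02. Slc6a2, the noradrenaline transporter, differed by 0.06 in PFC, −0.08 in NAC and 0.21 in VTA, and none was called. Phox2a, a transcription factor that defines noradrenergic cell bodies, was under the filter, at a mean percentile of 11.8 to 20.8 over the 6 groups. Th, Slc18a2 and Ddc serve dopamine neurons as well, as tyrosine hydroxylase, the vesicular monoamine transporter and the decarboxylase. Their values in VTA were −1.50 ± 0.49, −1.55 ± 0.51 and −1.22 ± 0.41 (limma, adjusted p = 0.131, 0.133 and 0.137).

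Of the 7 G protein alpha subunit genes none was called, and in VTA no unadjusted p was under 0.05. Gnai2, for a Gi subunit, differed by −0.14 ± 0.09 there, and Gnaq, for the Gq subunit, by −0.06 ± 0.05 (SE; limma, adjusted p = 0.394 and 0.540). The smallest adjusted values in VTA belonged to Rgs4, Adcy1 and Plcb4. Rgs4 encodes a protein that shortens Gi and Gq signals. It averaged 10.54 ± 0.39 in modafinil VTA and 9.74 ± 0.20 in vehicle VTA (SD, n = 5 each), a difference of 0.79 ± 0.17 (SE; limma, adjusted p = 0.0554). Adcy1, an adenylyl cyclase, differed by 0.82 ± 0.18 and Plcb4, a phospholipase C, by 0.62 ± 0.14 (limma, adjusted p = 0.0558 and 0.0625). Rgs4 was the only gene of the list called in a difference between regions, with a change in VTA larger than that in PFC by 0.87 ± 0.19 (limma, adjusted p = 0.014). The thalamic and dopamine markers given above differed in value between these VTA arrays, and their part was not tested.

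The same genes were compared between NAC and VTA. In vehicle mice 15 of 45 were called higher in NAC and 19 lower, with a median difference of −0.02 beside 0.01 over all tested probe sets. Over all tested probe sets 30.3% were called higher and 28.8% lower, and the list's counts, by role as well, are a description to be read against these shares. Of the 12 cyclase and phospholipase genes 5 were higher and 5 lower in NAC than in VTA. Plcb1, a phospholipase C, was higher in NAC by 1.43 ± 0.09, and Adcy7, Adcy8 and Plcb4 differed by −2.36 ± 0.16, −1.94 ± 0.19 and −1.64 ± 0.13 (limma, adjusted p = 4.72e-11, 1.65e-10, 6.16e-08 and 2.78e-09).

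Of 13 second messenger targets 4 were higher and 5 lower in NAC. Akap5, which anchors protein kinase A at synapses, was higher by 3.36 ± 0.16, and the protein kinase C genes Prkca and Prkcb by 1.20 ± 0.15 and 1.18 ± 0.15 (limma, adjusted p = 1.98e-12, 7.63e-07 and 1.01e-06). Prkaca, a catalytic subunit of protein kinase A, differed by −0.66 ± 0.08 (adjusted p = 6.05e-07). Of the 7 receptor kinase, arrestin and RGS genes 3 were higher and 2 lower, with Rgs2 and Rgs4 higher by 1.32 ± 0.12 and 1.39 ± 0.14 (limma, adjusted p = 1.1e-08 and 9.39e-08).

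Among the 7 G protein genes 2 were higher and 3 lower in NAC than in VTA. Gnao1, for the Go subunit through which alpha-2 receptors also act, was higher by 0.51 ± 0.10, and Gnas, for the Gs subunit, differed by −0.86 ± 0.14 (limma, adjusted p = 0.000287 and 3.79e-05). Of 6 tested supply genes 1 was higher and 4 lower. Ddc and Th differed by −2.81 ± 0.26 and −2.56 ± 0.40 (adjusted p = 2.13e-08 and 1.65e-05), and Dbh was higher in NAC by 0.55 ± 0.09 (adjusted p = 2.69e-05), read here from an x_at probe set.

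**Figure D5:**
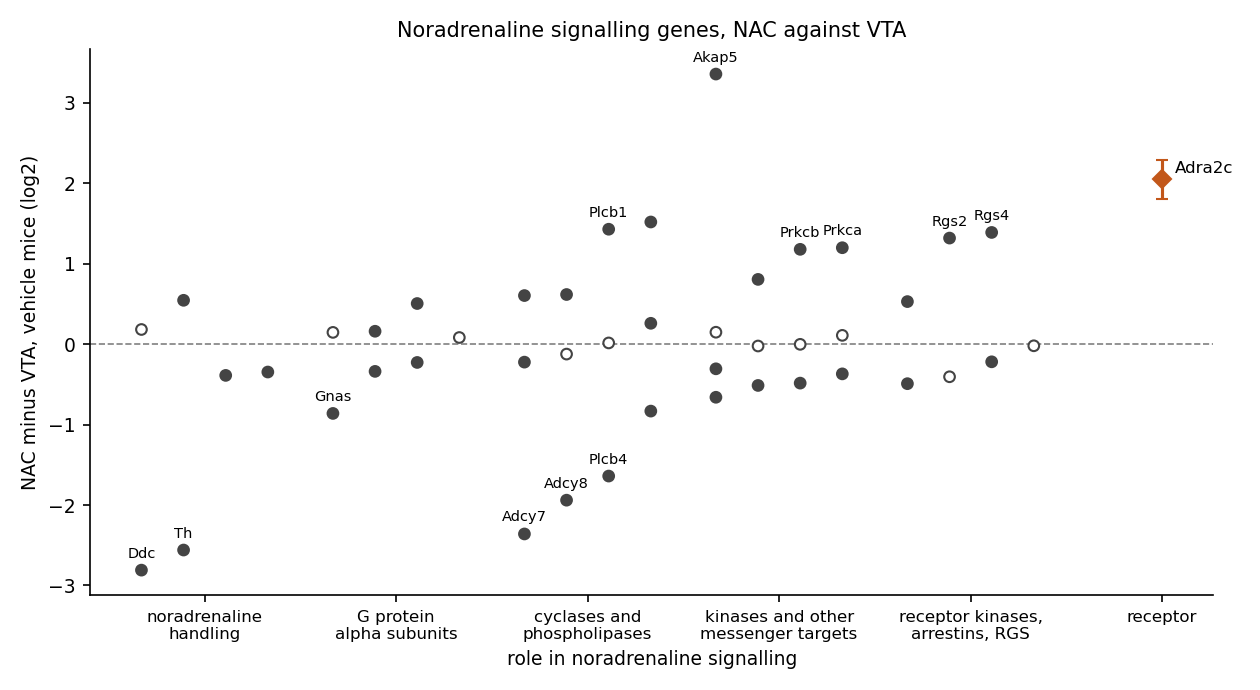
NAC minus VTA in vehicle mice on the log2 scale (y axis) for the 45 tested noradrenaline signalling genes by role (x axis) and for Adra2c (1422335_at, diamond with 95% interval); filled circles passed the adjusted threshold and open circles did not. Adra2c at 2.05 lies above all genes of the list but Akap5 at 3.36, and every role holds genes on both sides of 0.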

How the data were processed

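The values are log2 intensities of an Affymetrix mouse array as the authors deposited them, computed with RMA per the submitters' processing notes, its version not given in the sources used here. Of 45101 probe sets 64 were controls and were left out. Of the rest 34945 had 1 gene symbol, 932 several and 9160 none, and 34741 were matched to a current symbol by Entrez identifier. No 2 arrays were identical. Probe sets with a mean at or above the 40th percentile of the arrays of a fit were tested (27022), using limma 3.58.1 (lmFit, eBayes) under R 4.3.3, Benjamini-Hochberg adjustment over all of them and a threshold of 0.05. Treatment was fitted within each region, differences between regions over 36 arrays, and levels over the 18 vehicle arrays. Arrays of all regions were quantile normalized for PFC levels and for likeness. The probe set with the highest mean stood for its gene. In each list up to 4 genes with the smallest p were named, other genes for their role after their values were seen. Members and lists were chosen with earlier results of these data known. Scripts were tested on simulated data. Replicate numbers were not used to pair arrays in the main fits: in no comparison did every same-numbered pair correlate above 0.1. That rule cannot show that same-numbered arrays came from different mice. Alternatives were another filter, scale, variance model, weights, 1 probe set per gene, all arrays in 1 fit, the replicate block and leaving out each array. The number of arrays limits the precision.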

Additional observations from a re-analysis of the deposited data

Results flagged for a closer look

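Each member probe set was read in each group of 5 or 8 arrays, which made 30 sets of values. Of these, 3 held an array far from the rest, and chance gives about 1 in 20. The 30 sets share arrays, and most belong to Adra2c, so they are not independent. Adra2c (1422335_at) was at 8.21 in modafinil NAC array 4, where the nearest array of the group was at 8.86; the same array was the lowest in striatal markers, at 10.2. The dim Adra2c probe set 1457328_at was at 4.94 in modafinil NAC array 2, the nearest being 4.43. It was at 4.43 in modafinil PFC array 8, the nearest being 4.88.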

How the results depend on the processing

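The number of member probe sets called was 0 in each modafinil comparison and each difference of changes under all alternatives run, except that no member was tested in VTA with a filter at the 60th percentile. It stayed at 2 in each region contrast when single arrays were left out. Without a filter the main count of 2 became 5 in NAC against VTA and 5 in PFC against NAC. In PFC against VTA 1439762_x_at was then called as well, while Adra1b and 1457328_at were not. With 1 probe set per gene the count became 1 in all 3 region contrasts. More or fewer probe sets were tested in these settings. Over all probe sets, modafinil calls in VTA were 70, against 0 without a filter or with the block and up to 940 with all 36 arrays in 1 fit; in PFC they were 14, against 0 to 61, and across the regions 227, against 122 to 556. Whether replicate numbers pair the arrays is not given in the labels. The replicate block left the count at 0 in the modafinil comparisons and 2 in the region contrasts. The PFC minus NAC difference of the dim 1457328_at, −0.21 after quantile normalization, was 0.25 on the deposited values, and lost its call in 10 of 18 leave-outs, between −0.26 and −0.15; the cause was not tested. Adra1b in PFC stayed between −0.25 and −0.17 with single arrays left out. Of 575 alternatives of uncalled values 18 changed sign and 4 were called, all 4 those of Adra1b in PFC against VTA. Combinations of no filter with another scale or a left-out array were chosen after seeing the data.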
